A study of Mus musculus with 8 samples.

Results

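The regions described here are the transcription start sites whose gene symbol ends in Rik, the suffix of names first given to mouse cDNA clones of the RIKEN collection. They were chosen by that symbol alone from a catalogue of CAGE tag clusters in mouse facial skin, and no measured value entered the choice. There were 2191 such clusters, carrying 1103 different Rik names, of 84475 clusters in all. CAGE sequences the capped 5′ ends of RNA, so a tag cluster marks a stretch of the genome in which transcripts begin. The catalogue was made from 8 C57BL/6 mice at postnatal day 28. Lesional skin came from 4 mice with the genotype Nectin-cre(+);Ikk2FL/FL as the sample labels spell it (the series text writes Nestin-cre), and non-lesional skin from 4 mice labelled Control. Lesion and genotype cannot be told apart in this design, and the labels name no allele of the controls.

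The 8 columns of values in the deposited table carry names that match no sample, so no level, no number of libraries with a nonzero value and no difference between lesional and control skin was analysed for these start sites. What follows rests on the position, span and symbol of each cluster, with mm9 coordinates as deposited. The catalogue held clusters for 6 of 6 keratinocyte markers, 4 of 4 fibroblast markers, 2 of 2 endothelial markers, 2 of 2 macrophage markers and 1 of 1 T cell markers. It held none for 4 testis, 2 brain and 2 liver markers. Ikbkb, the gene of the targeted kinase IKK2, had 3 clusters and Nes had 1, and neither checks the deletion, because a tag at a capped end says nothing of exons lost farther along.

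A Rik name says only that a gene was known first as a cDNA clone. Many such genes were later recognised as protein-coding and received a descriptive symbol, and others are long non-coding RNAs (lncRNAs) that keep the clone name. Mammalian promoters rich in CpG dinucleotides often start transcription in both directions, and a head-to-head pair of genes can share the stretch between its starts. Here a pair of clusters on opposite strands was called divergent when the minus-strand cluster came first along the chromosome and the gap between the facing edges was at most 400 bp. It was called convergent when the plus-strand cluster came first. The partner had to carry a different symbol, and overlapping clusters were left out.

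The DNA between the starts of 8 divergent pairs is shown because these promoters carry some of the widest pairs of Rik clusters and their partners. Each sequence runs on the plus strand between the nearest annotated RefSeq starts of the genes in build GRCm38.p6, which is not the build of the clusters. Capitals mark the motif GGGCGG (a GC box, bound by Sp factors) and the motif CCAAT (bound by NF-Y), on either strand, and matches may overlap. The pairs with Ncl, Cdca8 and Cct3 were chosen after their values were seen.
1110005A03Rik with Jmjd6, chr11:116843450-116843514: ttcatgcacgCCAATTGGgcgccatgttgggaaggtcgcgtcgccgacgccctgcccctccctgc
1200016B10Rik with 1190005F20Rik, chr1:151428436-151428541: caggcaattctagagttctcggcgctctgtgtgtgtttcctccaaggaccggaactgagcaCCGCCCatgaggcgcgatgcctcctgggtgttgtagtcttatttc
6030458C11Rik with Drosha, chr15:12824658-12824814: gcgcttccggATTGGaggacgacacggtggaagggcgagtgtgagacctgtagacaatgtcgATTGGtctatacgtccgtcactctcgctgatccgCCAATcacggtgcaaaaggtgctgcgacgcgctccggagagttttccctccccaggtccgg
2810403D21Rik with Brwd3, chrX:108834347-108834477: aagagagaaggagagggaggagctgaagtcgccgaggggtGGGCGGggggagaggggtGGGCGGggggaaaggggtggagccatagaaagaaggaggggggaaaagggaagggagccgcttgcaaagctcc
3110009E18Rik with Dbi, chr1:120121097-120121186: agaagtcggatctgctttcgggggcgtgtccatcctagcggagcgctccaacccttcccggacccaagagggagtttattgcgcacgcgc
C130036L24Rik with Ncl, chr1:86359456-86359583: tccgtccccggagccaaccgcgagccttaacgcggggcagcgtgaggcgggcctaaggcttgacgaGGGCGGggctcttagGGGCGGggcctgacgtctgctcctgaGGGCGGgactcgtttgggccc
9930104L06Rik with Cdca8, chr4:124936918-124937047: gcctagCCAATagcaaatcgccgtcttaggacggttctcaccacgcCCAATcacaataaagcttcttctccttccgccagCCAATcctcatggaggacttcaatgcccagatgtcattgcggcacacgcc
1700021C14Rik with Cct3, chr3:88297000-88297134: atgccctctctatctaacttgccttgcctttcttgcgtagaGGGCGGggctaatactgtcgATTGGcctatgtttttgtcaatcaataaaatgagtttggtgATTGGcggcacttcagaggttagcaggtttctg

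Of these 8 stretches, that of C130036L24Rik and Ncl held 3 GC boxes and that of 2810403D21Rik and Brwd3 held 2. The stretches beside Drosha and Cdca8 each held 3 CCAAT motifs, while the stretch between 3110009E18Rik and Dbi held neither. Among 112 divergent pairs whose annotated starts lay 20 to 250 bp apart outside chromosome 18, the stretch had a median length of 101.5 bases. GGGCGG stood in 62 of them (55.4%) and CCAAT in 37 (33.0%). In stretches of the same lengths just before the starts of all 32851 RefSeq promoter windows, the mean shares were 23.7% and 18.4%. Those windows were taken without regard to GC content and included genes without a cluster in the catalogue. The 112 stretches had a median GC content of 67.65%. The part of GC content, or of having a cluster, in the higher shares was not tested. A match describes the letters and shows neither binding nor a cause.

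The Rik names were spread over several kinds of gene. Of the 1103 names, 464 were current RefSeq symbols (42.1%), 553 were older names of a single gene (50.1%), 83 were unmatched and 3 led to more than 1 gene. By gene type, 656 were protein-coding (59.5%), 346 were lncRNAs (31.4%) and 15 were of another type. Most of the coding genes had since been renamed, as 489 of 656 were listed under an older name. The reverse held for lncRNAs, of which 285 of 346 still carried the Rik name as their current symbol. Rik clusters made up 4.72% of the 46376 clusters with a gene.

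Rik clusters were wider than other clusters with a gene by their median. The median span was 34 bp (quartiles 4 and 98) for Rik clusters, against 11 bp (quartiles 3 and 85) for the 44185 other named clusters. Spans under 10 bp made up 39.8% of Rik clusters, against 48.8% of other named clusters, and spans of at least 100 bp made up 24.3% against 20.8%. The 1937 clusters named by Gm numbers, a class of predicted genes, had a median span of 11 bp and 10.3% of at least 100 bp. When each symbol was represented by its widest cluster the order turned, with a median of 92 bp for Rik names and 111 bp for the 14991 other symbols. Coding Rik names had a median widest cluster of 111 bp and lncRNA Rik names of 68 bp. These are descriptions without a test, because clusters of 1 gene are not independent.

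**Figure D1:**
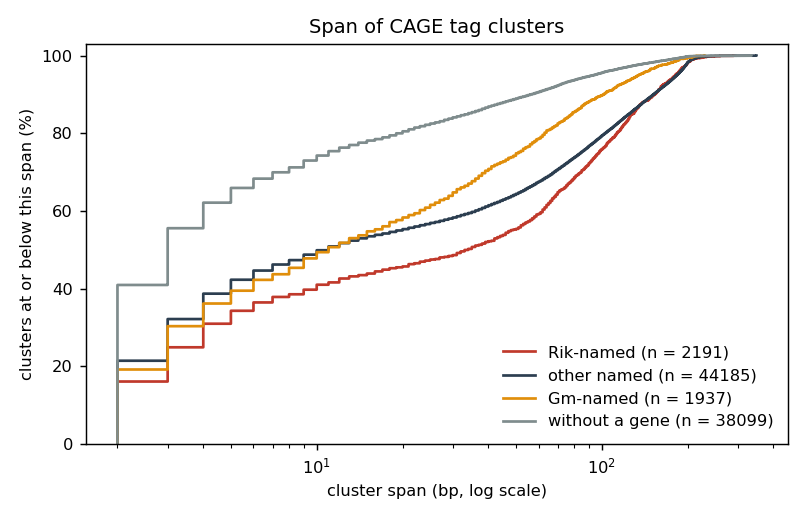
Cumulative share of clusters (percent) at or below each span (bp, log scale) for Rik-named clusters, other named clusters, Gm-named clusters (a subset of the other named ones) and clusters without a gene. The Rik curve lies lowest up to about 100 bp, with 39.8% of Rik clusters under 10 bp against 48.8% of other named clusters.

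Fewer clusters stood under a Rik name than under other symbols. A single cluster was found for 635 Rik names (57.6%), against 44.8% of other symbols, and 14 Rik names had 10 or more. Neighbouring clusters at least 1000 bp apart were found for 79 Rik names (7.16%, 95% Wilson interval 5.78 to 8.84), against 16.1% of other symbols (15.5 to 16.7). The clusters of each Rik name lay on 1 strand of 1 chromosome. Wilson intervals cover counting error only. Where clusters are counted, they treat clusters of 1 gene as independent and are likely too narrow.

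Of the 10 Rik names with most clusters, 9 were coding genes known today by other symbols. 1810031K17Rik (now Cnppd1) had 16 clusters within 1639 bp on the minus strand of chromosome 1, of which 12 spanned under 10 bp and the widest 163 bp. A130022J15Rik (Eogt, an enzyme that adds N-acetylglucosamine to extracellular EGF domains) had 14 within 1509 bp on chromosome 6. 1110067D22Rik (Lgalsl, a galectin-like protein) also had 14, but 9 of them were shared with a second symbol. 2900073G15Rik (Myl12a, a myosin regulatory light chain) had 13 on chromosome 17, with the largest gap at 3591 bp. Thus many of these counts came from narrow clusters beside a wide one.

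Distant starts stood out in other names of this set. 2010111I01Rik (Aopep, an aminopeptidase) had 12 clusters over 317275 bp of chromosome 13, with 1 gap of 307722 bp. 6330512M04Rik (Ifitm10, of the interferon-induced transmembrane family) had 12 with a gap of 33288 bp on chromosome 7. The remaining names were 1300014I06Rik (Pxdc1, 12 clusters), 6330416G13Rik (Tmem268, 11) and 1500032L24Rik (Smdt1, 11, of which 7 were shared with another symbol). The symbol 5430421N21Rik, with 13 clusters on chromosome 15, led to more than 1 RefSeq gene and is given no current name. Whether such narrow neighbours belong to 1 promoter was not tested.

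The names with the widest clusters formed a different set. Several of them had more than 1 cluster, with 8 for 2010109K11Rik. 2200002D01Rik, coding and still under its clone name, had 1 cluster of 290 bp on the minus strand of chromosome 7 from 30033258 to 30033548, the widest of all Rik clusters. 2010109K11Rik (Ccdc71l) followed with 260 bp and 1810022K09Rik (Rbis, a ribosome biogenesis factor) with 259 bp. 4933407C03Rik (Cmip) had 248 bp, 1810013L24Rik 247 bp, and 2610002M06Rik and 2810046L04Rik (Proser1) 234 bp each. 1110038D17Rik (Gucd1) had 228 bp and 2200002K05Rik (Vstm5) 227 bp. The only lncRNA among the 10 widest was E130307A14Rik, at 232 bp on chromosome 10, divergent from Rev3l, the gene of the catalytic subunit of DNA polymerase zeta.

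Divergent partners were frequent beside Rik clusters. Of 2191 Rik clusters, 545 lay divergent within 400 bp of a cluster with another symbol (24.9%, 95% Wilson interval 23.1 to 26.7). The background among the other named clusters was 10.3%, or 4535 of 44185. Counted by name, 336 of 1103 Rik names had such a partner (30.5%), against 14.1% of other symbols. Convergent partners stood beside 270 Rik clusters (12.3%), against a background of 4.57%. Clusters without a gene did not follow this order, as a divergent partner of that kind stood beside 8.44% of Rik clusters and 9.80% of other named clusters. Gm-named clusters had a divergent named partner in 18.6% of cases.

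The share differed with gene type. Among lncRNA Rik clusters, 245 of 571 had a divergent partner (42.9%, 38.9 to 47.0), against 177 of 564 clusters of other lncRNAs (31.4%, 27.7 to 35.3). Among coding Rik clusters it was 245 of 1450 (16.9%, 15.1 to 18.9), against 9.83% of 41535 clusters of other coding genes (9.55 to 10.1). By name the lncRNA shares lay closer, at 161 of 346 Rik names (46.5%, 41.3 to 51.8) and 113 of 258 other lncRNA symbols (43.8%, 37.9 to 49.9), with overlapping intervals. Gm-named lncRNAs, which are part of that second set, had a divergent partner at 48.3% of their 319 clusters (42.8 to 53.7), so a high share was not limited to Rik names. The coding shares by name were 20.4% for Rik names (17.5 to 23.7) and 13.8% for other symbols (13.2 to 14.4). Unmatched Rik names had a divergent partner in 38 of 83 cases (45.8%). Coding genes still under a Rik name, at 38 of 167 (22.8%), and renamed coding genes, at 96 of 489 (19.6%), had overlapping intervals (17.1 to 29.7 and 16.4 to 23.4).

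**Figure D2:**
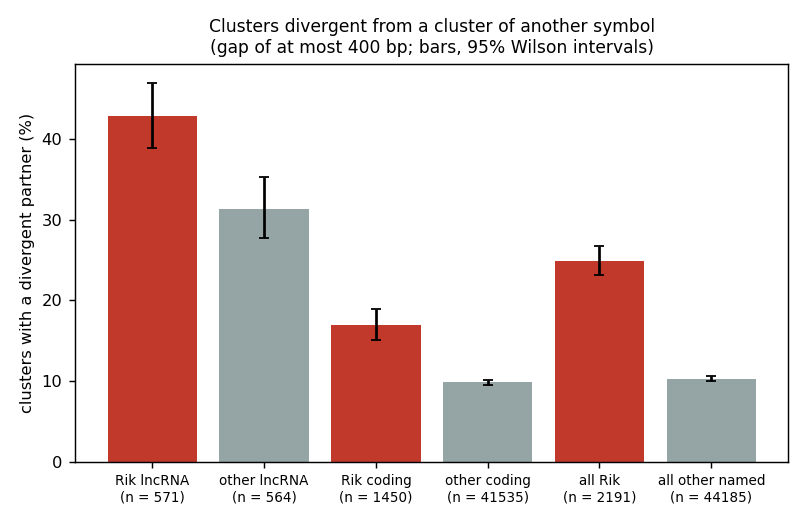
Share of clusters (percent, with 95% Wilson intervals) that lie divergent within 400 bp of a cluster of another symbol, for Rik clusters (red) and other named clusters (grey) by gene type. The bar of Rik lncRNA clusters is the highest at 42.9%, beside 31.4% for other lncRNA clusters, and the bar of Rik coding clusters stands at 16.9% beside 9.83%.

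Gaps were mostly short. Of the 545 Rik clusters with a divergent partner, 206 lay within 50 bp of the nearest one (37.8%), and the count decreased in each wider bin to 15 between 350 and 400 bp. Convergent gaps were spread more evenly, with 44 of 270 in the first bin (16.3%). The limit of 400 bp fell in the thin tail. Just inside it lay a cluster of 0610012G03Rik, 394 bp from Ncbp2, and one of A530072M11Rik, 397 bp from Ripk2. Just outside it lay a cluster of 2310045N01Rik, 406 bp from Rfxank, and one of 4933434E20Rik, 411 bp from Ubap2l. Both of these names had other clusters within the limit, with smallest gaps of 145 and 155 bp.

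**Figure D3:**
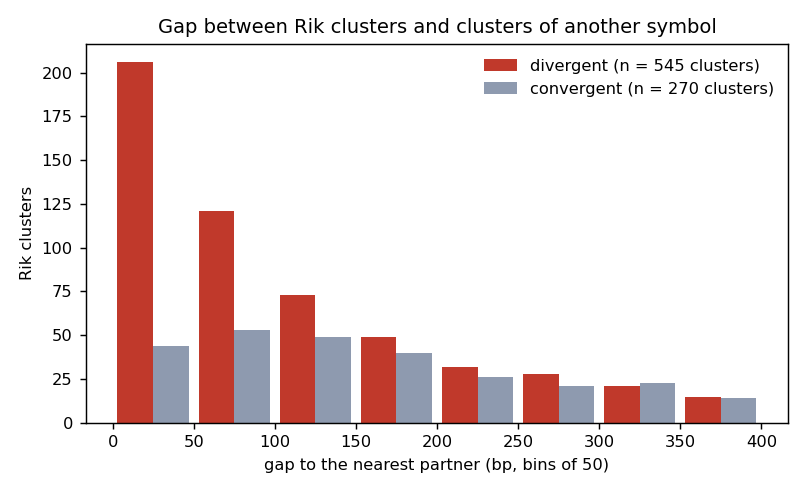
Number of Rik clusters by the gap (bp, in bins of 50) to the nearest divergent or convergent cluster of another symbol. Divergent gaps are most frequent in the first bin, with 206 clusters, whereas convergent gaps peak at 53 clusters between 50 and 100 bp.

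The 1011 divergent cluster pairs joined 325 pairs of symbols, of which 14 consisted of Rik names on both sides. In the other 311 the partner was a protein-coding gene in 300 cases, and 152 pairs set a Rik lncRNA against a coding gene. The pair of clusters with the widest narrower member was taken for each of the 325 pairs. The median gap was 87 bp, and the middle 50% of gaps ran between 29 and 196 bp. In the 311 pairs with 1 Rik name the median span was 75 bp for the Rik cluster and 105 bp for its partner. The partner was the wider in 205 pairs, the Rik cluster in 102, and 4 were equal. Coding Rik names and coding partners had medians of 98 and 118 bp. In the 152 pairs of a lncRNA Rik name with a coding gene the partner was the wider in 107, and the median gap was 80 bp. Some pairs set a narrow Rik start beside a broad partner, as with 4930426L09Rik at 7 bp beside Pip4k2a at 244 bp.

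**Figure D4:**
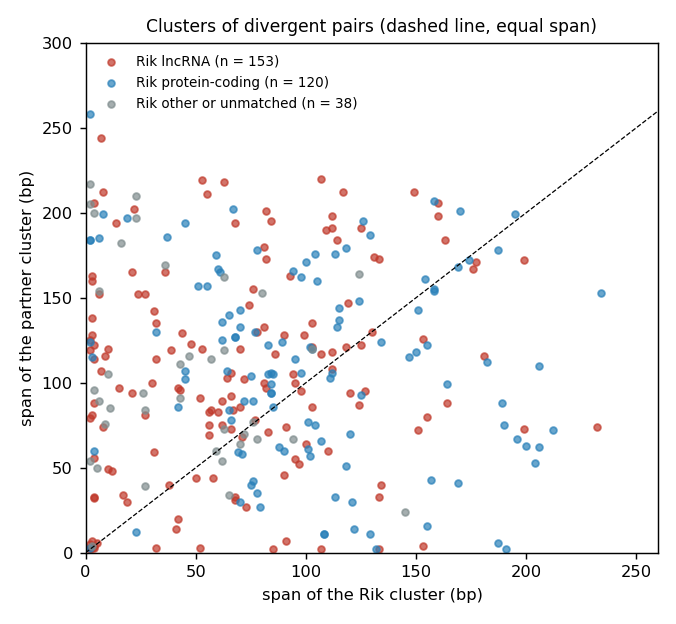
Span (bp) of the Rik cluster and of its partner in 311 divergent pairs of symbols, coloured by the gene type of the Rik name, with the dashed line at equal span. More points lie above the line (205) than below it (102), and points at the left edge are Rik clusters of a few bp, some of them beside broad partners.

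The broadest balanced pair was 1110005A03Rik (Mettl23, a methyltransferase) with Jmjd6, a jumonji-domain hydroxylase. On chromosome 11 the Rik cluster spanned 195 bp and the Jmjd6 cluster 199 bp, with a gap of 142 bp. 1200016B10Rik (Swt1, an RNA endonuclease) and 1190005F20Rik (Trmt1l, a tRNA methyltransferase homologue) faced each other on chromosome 1 with spans of 179 and 180 bp and a gap of 22 bp. 1700052N19Rik (Armt1) at 187 bp lay 44 bp from Rmnd1 at 178 bp. 6030458C11Rik at 174 bp faced Drosha, the nuclease that opens microRNA processing, at 172 bp. 3110009E18Rik at 170 bp faced Dbi, the acyl-CoA binding protein, at 201 bp across 16 bp. 1700029J07Rik at 169 bp faced Ufsp2, a protease of the UFM1 pathway, at 168 bp.

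Broad lncRNA starts also faced genes of known function. 2310010J17Rik spanned 199 bp and lay 18 bp from Picalm, a clathrin adaptor, at 172 bp. 5930412G12Rik (Fzd10os) spanned 176 bp and lay 52 bp from the Wnt receptor gene Fzd10 at 167 bp. 2810403D21Rik at 177 bp faced the bromodomain gene Brwd3 at 171 bp, and 3110056K07Rik at 163 bp faced the chromatin gene Arid4a at 184 bp. C130036L24Rik at 160 bp lay 126 bp from Ncl, the gene of nucleolin, at 198 bp. 1810019D21Rik at 149 bp lay 10 bp from Esrp2, a splicing regulator of epithelial cells, at 212 bp. E030042O20Rik at 107 bp faced Nfe2l2, the regulator of the oxidative stress response, at 220 bp, and 2310002F09Rik at 66 bp faced the epidermal protease gene Klk8 at 73 bp across 18 bp. The examples after Arid4a, and that of Pip4k2a above, were chosen after their values were seen.

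The annotation was then compared with these pairs. Both symbols had RefSeq start windows on the same opposite strands for 205 of the 325 pairs, 118 lacked a window for 1 or both, and 2 differed in strand or chromosome. Of the 205, the nearest annotated starts were divergent within 400 bp in 143 and within 1000 bp in 155. In 36 the nearest annotated starts stood in the reverse order, 30 of them within 1000 bp of each other. In 20 pairs of either order the annotated starts lay over 1000 bp apart. For 2310002F09Rik and Klk8 the annotated starts lay 41641 bp apart, in contrast to the gap of 18 bp between their clusters.

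A further annotation uses the ending os, for opposite strand, after the name of another gene. Of 39 Rik names whose current symbol has this form, the named gene had a cluster in 35, and 19 of the 39 lay divergent within 400 bp of it (48.7%). Over all lncRNA Rik names, 46.5% had a divergent partner of any symbol, a share close to that of the names with this ending. The 19 included 1700109F18Rik (Hoxd3os1) at 13 bp, C030044B11Rik (Fam120aos) at 7 bp and 1110054M08Rik (Lppos), with 8 clusters, at 1 bp. In contrast, 1110001A16Rik (Cebpzos) had a cluster of 211 bp and 1110006G14Rik (Sox6os) one of 116 bp with no divergent cluster of the named gene in that range.

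CpG content also differed between divergent and other Rik names in the RefSeq windows, which reach from 250 bases before to 50 after each start. A window was found for 838 genes with a Rik name in the catalogue (1003 windows). The median ratio of observed to expected CpG was 0.859 in windows of divergent Rik names, 0.693 in those of other Rik names, 0.384 in all 32851 windows and 0.249 in windows of RefSeq Rik symbols without a cluster. GGGCGG on either strand stood in 68.4% of windows of divergent Rik names, 57.0% of those of other Rik names, 35.7% of all windows and 17.9% of those without a cluster. For TATAAA, the motif of the TATA box counted anywhere in the window, the shares ran the other way, at 4.42%, 8.89%, 13.6% and 13.9%. The median GC content of the same sets was 64.2%, 58.7%, 52.7% and 49.0%. CCAAT differed little over these sets, at 38.8%, 35.0%, 37.4% and 38.6%. By type it stood in 43.2% of divergent and 34.5% of other coding Rik windows, and in 34.2% and 36.3% of lncRNA Rik windows. Among lncRNAs alone the CpG ratio was 0.854 in divergent and 0.609 in other Rik windows. The set without a cluster was taken by RefSeq symbol. The Rik sets with a cluster also held genes with an older Rik name, most of them protein-coding. The part of gene class, or of GC content, in these differences was not tested.

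Of the 551 renamed names, 99 were placed by hand in 8 groups by current function, drawn up after the names in the catalogue were known. Each name stands in 1 group. The groups are not complete lists of the genes of a function, so their divergent counts describe the listed names only. Mitochondrial assembly and import held 22 Rik names and 52 clusters. None of their widest clusters spanned under 10 bp, 14 spanned at least 100 bp, the median was 123.5 bp and 8 names had a divergent partner. Over all coding Rik names the median was 111 bp and the divergent share 20.4%. Assembly factors of cytochrome c oxidase were among them. 6330578E17Rik (Coa5) had 206 bp on the minus strand of chromosome 1 and lay divergent from Unc50. 1810063B05Rik (Coa6) had 191 bp on chromosome 8, 2010305A19Rik (Coa7) 71 bp on chromosome 4, and 2810002N01Rik (Coa8) 122 bp on chromosome 12.

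Complex I factors formed a second set. 1810043H04Rik (Ndufaf8) had 201 bp and faced 2410002I01Rik (Tepsin, an accessory protein of an adaptor complex), another Rik name. 2310030N02Rik (Ndufaf6) had 99 bp, 2310003L22Rik (Ndufaf5) 64 bp facing Esf1, and 2410091C18Rik (Ndufaf7) 59 bp facing Cebpz. 1500032L24Rik (Smdt1), the subunit that joins the calcium uniporter to its regulators, had 186 bp. 2310016M24Rik (Cox14) had 183 bp. 1700034H14Rik (Timm21) and 1810026J23Rik (Timm29), of the inner membrane import machinery, had 172 and 155 bp. The crista factors 2410015M20Rik (Micos13) had 154 bp, and 2310028O11Rik (Micos10) had 4 clusters over 26047 bp.

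The group of cell division and DNA repair held 17 names and 31 clusters. Their widest clusters had a median of 102 bp, between 62 and 189 bp, and 8 of the 17 had a divergent partner, beside 20.4% of all coding Rik names. 5930416I19Rik (Rhno1, of the replication checkpoint) lay divergent from Foxm1, the transcription factor of mitotic genes. 6720463M24Rik (Bora, an activator of Aurora A) at 115 bp faced Mzt1, a part of the gamma-tubulin complex. 4930547N16Rik (Parpbp) at 150 bp faced the nucleoporin gene Nup37. 2810417H13Rik (Pclaf), a PCNA-binding protein of proliferating cells, had 3 clusters of up to 111 bp with no divergent partner.

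The cilia and centrosome group held 20 names and 27 clusters, with a median widest span of 84 bp. None of the 20 had a divergent partner, beside the same 20.4% of all coding Rik names. 1500031L02Rik (Cep19) had the widest at 205 bp, and 1700003M02Rik (Cfap206), an axonemal protein, the narrowest at 8 bp. The group of host and regulatory lncRNAs held 13 names and 33 clusters. 2810055G20Rik (Mir99ahg) had 10 of these, 6720401G13Rik (Firre) had a widest cluster of 199 bp, and B230206F22Rik (Ftx) one of 164 bp. 2610203C20Rik and D230004N17Rik are older names of the same host gene, Mir100hg. Of the 13, beside 46.5% of all lncRNA Rik names, 1500012F01Rik (Zfas1) alone had a divergent partner, Znfx1, and all 3 of its clusters were shared with another symbol. The 46.5% also covers lncRNAs still under a Rik name and names with the ending os, which this group does not hold.

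The group of epidermis and hair follicle held 11 names and 26 clusters, with a median widest span of 79 bp. 4631405K08Rik (Mir205hg), host of an epithelial microRNA, had 6 clusters of up to 211 bp on the minus strand of chromosome 1. 1600029D21Rik (Plet1), a surface protein of hair follicle progenitors, had 164 bp, and 1810019J16Rik (Kdf1), a keratinocyte differentiation factor, had 148 bp. 2310007B03Rik (Mab21l4) had 163 bp and 1100001G20Rik (Wfdc21) 122 bp. Other genes of the group had narrower clusters. 2310002J15Rik (Cysrt1) spanned 67 bp and C330046G03Rik (Tspear) 32 bp. 4732456N10Rik (Krt90, a keratin) spanned 13 bp and 2310001H18Rik (Lce3e, a late cornified envelope protein) 10 bp. 2300005B03Rik (Slurp2, a secreted Ly6 protein) spanned 3 bp.

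Smaller sets touched skin lipids, immunity and muscle. 1110002B05Rik (Sptssa) had 198 bp and 1110032A04Rik (Sptssb) 109 bp, both small subunits of the enzyme that starts sphingolipid synthesis. 9930013L23Rik (Cemip), which takes part in breakdown of hyaluronan, had 24 bp. Among 9 names placed by hand under innate immunity and lymphocytes, 4632428N05Rik (Vsir, the checkpoint receptor VISTA) had 136 bp. E330016A19Rik (Cgas, the sensor of cytosolic DNA) had 130 bp and A230050P20Rik (Shfl, an antiviral factor) 120 bp. I830012O16Rik (Ifit3b), induced by interferon, had 46 bp, and 9130404H23Rik (Themis3) had 4 bp. The 4 muscle genes had 1 cluster each, among them 2310046A06Rik (Mlip) at 122 bp and 2310015B20Rik (Mrln, which regulates the calcium pump of muscle) at 96 bp. The library from which each cluster came was not analysed here.

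The leading characters of a Rik name record the cDNA library of the clone. Libraries of tongue, neonatal skin and testis were told by the prefixes given under the bars of the plot by library, and all remaining prefixes formed a single class. Of RefSeq genes with a neonatal skin name among their current or older symbols, 142 of 156 had a cluster in the catalogue (91.0%, 85.5 to 94.6). For tongue names it was 554 of 610 (90.8%, 88.3 to 92.9), for testis names 1070 of 2852 (37.5%, 35.8 to 39.3) and for all other prefixes 77.4% of 8828. The testis names held more lncRNAs, and among protein-coding genes alone the shares were 94.2% for skin, 95.4% for tongue, 54.6% for testis and 84.4% for others. With genes that still carry the clone name as symbol, the testis share was 100 of 1125 (8.89%), against 23 of 52 for tongue (44.2%) and 8 of 12 for neonatal skin (66.7%, 39.1 to 86.2). A gene with names from several libraries counted in each.

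**Figure D5:**
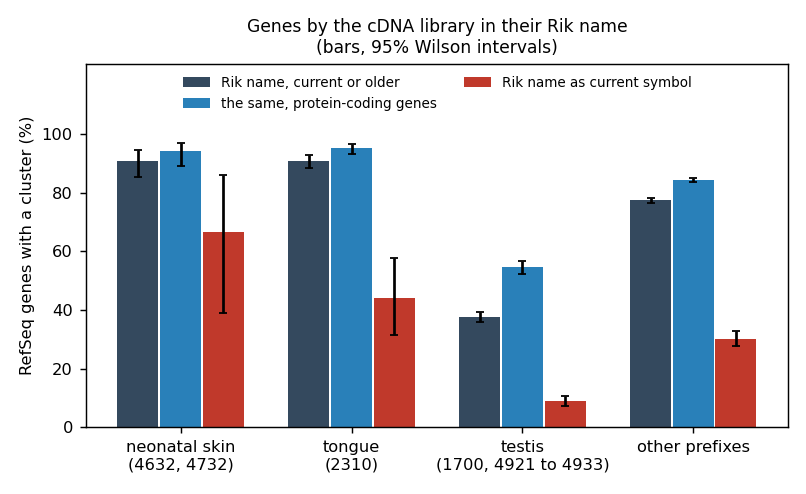
Share of RefSeq genes (percent, with 95% Wilson intervals) that had a cluster in the catalogue, by the cDNA library recorded in their Rik name, for any Rik name, for protein-coding genes alone, and for Rik names that are the current symbol. Testis names have the lowest bar of each colour, at 37.5%, 54.6% and 8.89%.

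The divergent share of the names in the catalogue also varied with the library. Of 189 Rik names in the catalogue with a testis prefix, 79 had a divergent partner (41.8%), against 15 of 71 tongue names (21.1%), 8 of 21 neonatal skin names (38.1%) and 234 of 822 names of other prefixes (28.5%). LncRNAs made up 37.6% of the testis names, 15.5% of the tongue names, 42.9% of the neonatal skin names and 31.0% of the others, and their part in this difference was not tested. The median widest span was 77 bp for testis names, 112 bp for tongue names, 86 bp for neonatal skin names and 94 bp for other prefixes.

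Some Rik starts could not be assigned to 1 gene. A second symbol had been given to 91 of the 2191 Rik clusters. The widest of these, at 200 bp on the plus strand of chromosome 5, carried both 0610007C21Rik (Atraid) and Cad, whose product carries out the first steps of pyrimidine synthesis. Without the shared clusters the median span was 35 bp over 2100 clusters.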

How the data were processed

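CAGE libraries were made from total RNA of mouse facial skin with a commercial kit, per the labels' protocols. The submitters' processing notes name BWA, HISAT2 and build mm9. How tags were joined into clusters or tied to genes is not given in the sources used here. The table deposited by the authors gives the position and symbol of each cluster. Its 8 value columns match no sample label and were not used, so depth was not analysed and the planned comparison of groups was not run.

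The 2192 Rik rows held 2191 distinct positions, each taken as a single cluster. Span is end minus start. Symbols were matched to the RefSeq table of GRCm38.p6 for names, types and promoter windows, and cluster positions were not converted. Every pair of clusters on opposite strands within the limit was kept. The pair count was tested on simulated positions. Shares carry 95% Wilson intervals. Clusters of 1 gene are not independent, so no test was run and intervals over clusters are likely too narrow. Named were the 10 Rik names with most clusters, the 10 with the widest cluster, the 10 widest divergent pairs and members of the groups by function, besides the exceptions the text marks. Members, lists and groups were chosen with earlier results of these data known. Python 3.11.15 with pandas 2.3.3 was used.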

Additional observations from a re-analysis of the deposited data

How the results depend on the processing

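Alternatives that need the value columns (pseudocounts, filters, count models, levels in every library, leaving out libraries) are absent here. No paired analysis was possible because no column of values bears a sample's name. Counting rows gave 2192 in place of 2191 Rik clusters. With spans of at least 10 bp, 1320 Rik clusters remained, under 973 of 1103 names, and the divergent share was 24.5% against 24.9%, beside 10.1% of other named clusters. The divergent share was 20.5% at 200 bp, 28.0% at 1000 bp, 22.4% with partners that bear no Rik name and 27.6% with overlapping clusters counted. For other named clusters the same settings gave 7.47%, 12.7%, 8.69% and 11.3%, so the Rik share was the higher in each of these settings. The median span was 92 bp with the widest cluster of each name and 35 bp without shared clusters, against 34 bp. Current symbols alone matched 464 names in place of 1017. They lowered the listed share to 8.89% for testis, 44.2% for tongue, 66.7% for skin and 30.3% for other prefixes. Spans of at least 10 bp gave 35.1%, 88.0%, 90.4% and 74.2%, and protein-coding genes alone, a setting added after seeing the data, gave 54.6%, 95.4%, 94.2% and 84.4%. Testis names had the lowest share in each. Since depth is unknown, genes without a cluster may lie below detection.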
